A study of Homo sapiens with 8 samples.

Results

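The genes described here are PTK7, WNT5A, WNT5B, ROR1, ROR2, VANGL1, VANGL2, FZD3, FZD7 and CELSR2, which belong to noncanonical WNT signalling and planar cell polarity. They are 10 of the 32066 genes in the deposited count table, found by matching Ensembl identifiers to these symbols, and all 10 were matched. RNA was sequenced from 4 libraries of DU145 cells with exogenous SOX11 and 4 libraries of control DU145 cells. DU145 is an established epithelial line of human prostate carcinoma taken from a brain metastasis, and SOX11 is a transcription factor of the developing nervous system. Cells of both groups were grown in DMEM with serum. The labels do not give how SOX11 was introduced, whether a population was 1 clone, or what the control cells carried. The comparison asks which transcripts differ when SOX11 is expressed. The 10 genes were chosen by their role, with results of this same comparison known, so their differences are given as a description and not as a test.

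Planar cell polarity aligns cells within the plane of a tissue and guides collective movements such as convergent extension. WNT5A and WNT5B are secreted ligands that mostly act without beta-catenin. They bind frizzled receptors together with ROR1, ROR2 or PTK7, and the signal reaches small GTPases, JNK and the cytoskeleton. VANGL and CELSR proteins belong to the core complex that is placed asymmetrically at cell borders. PTK7 is a receptor with a catalytically inactive kinase domain that binds WNT ligands and frizzled and is needed for neural tube closure in the mouse.

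Of the tested genes described here, PTK7 and WNT5B had the largest fold changes, and the VANGL paralogues differed in opposite directions. For that reason, stretches before RefSeq starts of PTK7, WNT5B, VANGL1 and VANGL2 are shown. Each holds the 250 bases before the first start listed for the gene in RefSeq (build GRCh38.p14). RefSeq starts differ from the GENCODE gene spans given with the results, and the WNT5B window lies inside the longer GENCODE span of that gene. The ends of the PTK7 and VANGL1 windows also reach into the GENCODE spans of those genes. The second windows of PTK7, WNT5B and VANGL1, not shown, lie inside the spans. Capitals mark ACAAAG or ACAATG on either strand, forms of the core sequence that SOX proteins bind; lower case is the rest.
PTK7, chr6:43076064-43076313, plus strand: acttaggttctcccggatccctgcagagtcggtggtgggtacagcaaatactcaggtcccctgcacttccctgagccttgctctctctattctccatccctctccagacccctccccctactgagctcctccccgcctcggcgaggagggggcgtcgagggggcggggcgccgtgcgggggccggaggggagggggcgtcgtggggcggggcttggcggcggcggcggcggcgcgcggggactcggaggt
WNT5B, chr12:1616806-1617055, plus strand: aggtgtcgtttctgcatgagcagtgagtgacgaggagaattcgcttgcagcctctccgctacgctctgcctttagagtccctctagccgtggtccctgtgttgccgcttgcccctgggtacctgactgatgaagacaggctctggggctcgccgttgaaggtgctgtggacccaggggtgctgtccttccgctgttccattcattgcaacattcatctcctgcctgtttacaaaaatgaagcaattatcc
VANGL1, chr1:115641720-115641969, plus strand: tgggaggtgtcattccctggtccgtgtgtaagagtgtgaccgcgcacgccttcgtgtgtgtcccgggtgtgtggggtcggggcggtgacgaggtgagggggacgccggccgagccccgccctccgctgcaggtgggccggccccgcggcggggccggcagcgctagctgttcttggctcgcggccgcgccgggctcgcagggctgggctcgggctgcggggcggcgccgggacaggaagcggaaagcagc
VANGL2, chr1:160400314-160400563, plus strand: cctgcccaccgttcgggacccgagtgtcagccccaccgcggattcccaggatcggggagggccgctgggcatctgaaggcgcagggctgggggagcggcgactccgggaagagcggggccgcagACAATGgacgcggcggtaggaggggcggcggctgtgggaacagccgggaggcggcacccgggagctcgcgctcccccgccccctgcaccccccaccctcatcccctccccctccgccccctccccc
Such sequence was read for 8 of the 10 genes, in 12 windows. FZD7 had no window listed, and FZD3 was not examined for this sequence. The letters occurred in 2 of the 12 windows. One was the VANGL2 window shown, where ACAATG began 126 bases before the start. The other was the single window of ROR2, which held ACAAAG on the strand opposite the gene, 195 bases before the start. Of all 35116 windows of this length, 21.2% held at least 1 of the 2 motifs. Neither PTK7 window and neither WNT5B window held them, which says only that these letters are not in these windows. GC content ran from 50.8% in the second WNT5B window to 78.0% in the ROR2 window, and the median of all windows was 58.0%.

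SOX11 itself had 315, 303, 317 and 310 counts in the SOX11 libraries and 0 counts in every control library. Total counts ran from 15309037 to 16740516 in SOX11 libraries and from 14641250 to 18706095 in control libraries. Levels are given as CPM, counts scaled to library size with TMM factors. A gene was called at an edgeR adjusted p below 0.05 over all 15665 genes tested. By that rule 20.0% of tested genes were called, 10.3% higher and 9.67% lower in SOX11 libraries. The labels do not say whether the libraries came from separate cultures. The p-values set the group difference against the variation between these libraries, which may be only technical.

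In SOX11 libraries PTK7, WNT5B, VANGL2, FZD3 and CELSR2 were called higher and VANGL1 was called lower. WNT5A, ROR1 and FZD7 were not called, and ROR2 was too low to test. Thus 6 of the 9 tested genes were called, beside 20.0% of all tested genes, and nothing is read from that share because the genes were chosen with this comparison known. Their median log2 fold change was 0.19, against 0.0011 for all tested genes. In whole-culture RNA, a change in the number of expressing cells and a change in RNA per cell cannot be told apart.

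PTK7, the inactive-kinase receptor, stood at 42.9, 41.7, 45.2 and 42.4 CPM in the SOX11 libraries and at 22.0, 22.3, 23.7 and 21.1 CPM in the control libraries. Every SOX11 library lay far above every control library, and the 4 values within each group lay close together. The means were 43.1 ± 1.48 CPM in SOX11 and 22.3 ± 1.09 CPM in control (SD, n = 4 each), a log2 fold change of 0.95 ± 0.0546 (SE), or 1.93-fold. Of all tested genes, 0.932% had a larger log2 fold change. The gene lies on chromosome 6 at 43076268 to 43161719 on the plus strand of GRCh38 (ENSG00000112655), in 19 merged exon blocks. No other gene of the table overlaps its span.

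**Figure D1:**
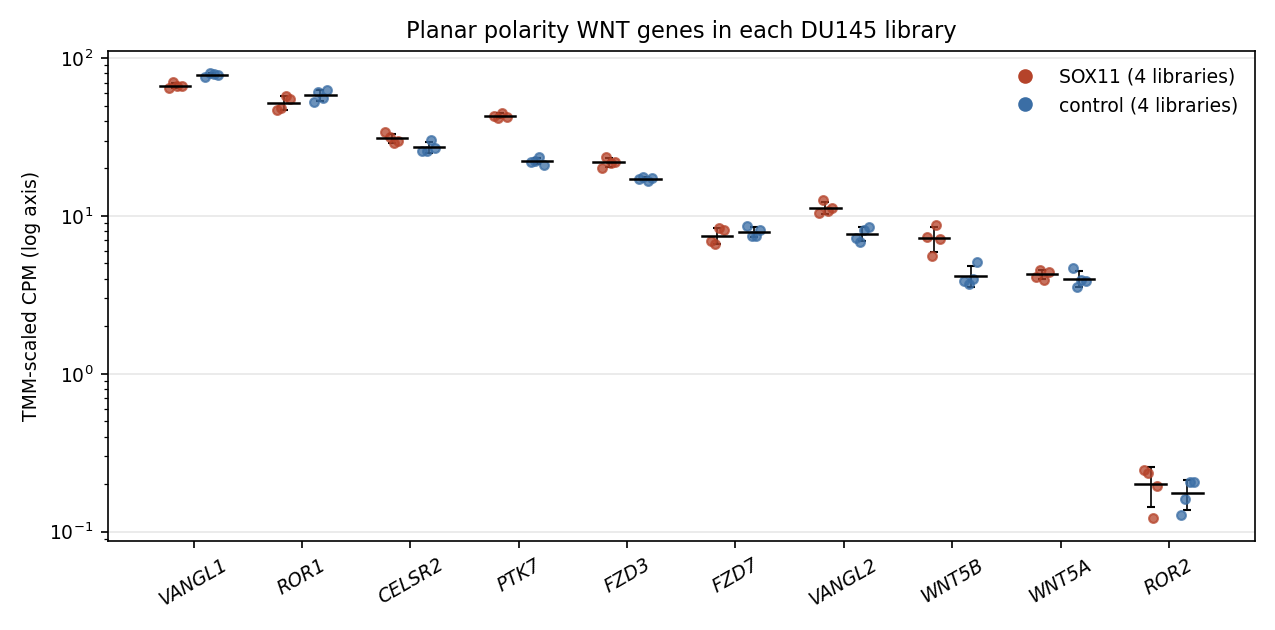
TMM-scaled CPM (log axis) of the 10 genes in each library, SOX11 left of control for each gene; points are libraries, black lines the mean and bars the SD. PTK7 sits near 43.1 CPM in SOX11 and 22.3 CPM in control libraries, while ROR2 stays near 0.2 CPM in both.

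Between the WNT5 ligands, WNT5B differed and WNT5A was not called. WNT5B was measured at 7.33, 5.61, 8.74 and 7.15 CPM in SOX11 libraries and 3.89, 3.73, 3.98 and 5.12 CPM in control libraries. The groups did not overlap, but SOX11 replicate 2 and control replicate 4 came close to each other. The log2 fold change was 0.79 ± 0.135 (SE), or 1.73-fold, from a mean of 7.21 ± 1.28 CPM in SOX11 and 4.18 ± 0.636 CPM in control (SD, n = 4 each). WNT5B had the widest spread of the tested genes described here (SD of log2 values 0.26 in SOX11 and 0.20 in control libraries). It rests on 95 to 144 counts in SOX11 libraries and 58 to 74 counts in control libraries.

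WNT5A, the ligand usually taken as the main activator of noncanonical signalling, had 4.13, 4.55, 3.95 and 4.42 CPM in SOX11 libraries and 4.65, 3.56, 3.91 and 3.87 CPM in control libraries. The groups overlapped. Its log2 fold change was 0.09 ± 0.133 (SE), an error larger than the value. WNT5B is on chromosome 12 at 1529891 to 1647243 on the plus strand and shares its span with FBXL14 on the other strand, though no exons overlap. WNT5A is on chromosome 3 at 55465715 to 55490539 on the minus strand, within which WNT5A-AS1 lies on the other strand, again with no shared exon sequence.

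Among the receptors of the ROR family, which share an extracellular frizzled-like domain and a kinase domain, ROR1 carried nearly all of the signal. ROR1 had 46.9, 48.3, 57.4 and 55.2 CPM in SOX11 libraries and 52.8, 60.5, 55.6 and 62.9 CPM in control libraries. The groups overlapped, with SOX11 replicates 1 and 2 below every control library. Its log2 fold change was -0.16 ± 0.0658 (SE), with an edgeR adjusted p of 0.103. The adjusted p was 0.0245 without control replicate 1, 0.0190 without SOX11 replicate 3, 0.00761 without a filter on low counts and 0.0404 with the replicate number as a block, so ROR1 was called lower under these settings. ROR1 covers 63774022 to 64181498 on the plus strand of chromosome 1. ROR1-AS1, CFL1P3 and ENSG00000177452 overlap that span on the other strand without sharing exon sequence.

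ROR2 gave 4, 4, 2 and 3 counts in SOX11 libraries and 2, 3, 3 and 3 counts in control libraries. That is 0.200 ± 0.0567 CPM in SOX11 and 0.176 ± 0.0384 CPM in control (SD, n = 4 each). No difference was detectable at this depth, and the gene did not pass the filter on low counts. ROR2 lies on chromosome 9, 91563091 to 91950162, on the minus strand.

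The paralogues VANGL1 and VANGL2, multi-pass membrane proteins of the core complex, differed in opposite directions. VANGL2 had 10.4, 12.7, 10.8 and 11.2 CPM in SOX11 libraries and 7.27, 6.86, 8.16 and 8.51 CPM in control libraries. All SOX11 libraries lay above all control libraries, with a log2 fold change of 0.56 ± 0.0969 (SE), or 1.48-fold.

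VANGL1 had 64.6, 70.0, 66.1 and 66.2 CPM in SOX11 libraries and 75.9, 80.1, 79.6 and 78.5 CPM in control libraries. Here all SOX11 libraries lay below all control libraries. The log2 fold change was -0.23 ± 0.0407 (SE) and the fold 0.850. Both genes are on chromosome 1 on the plus strand, VANGL1 at 115641953 to 115698224 and VANGL2 at 160400586 to 160428678.

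FZD3, the frizzled receptor known in the mouse for axon tract growth and polarity, had 20.3, 23.5, 21.7 and 21.8 CPM in SOX11 libraries and 17.1, 17.5, 16.7 and 17.4 CPM in control libraries. The groups did not overlap. Its log2 fold change was 0.35 ± 0.0658 (SE), or 1.27-fold. FZD7, a frizzled receptor that takes part in both canonical and noncanonical signalling, had 6.90, 6.61, 8.38 and 8.12 CPM in SOX11 libraries and 8.67, 7.51, 7.47 and 8.16 CPM in control libraries. These values overlapped and its log2 fold change was -0.08 ± 0.105 (SE). FZD3 is on chromosome 8 at 28494205 to 28574268 and FZD7, a gene in 1 exon block, on chromosome 2 at 202034587 to 202038445, both on the plus strand.

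CELSR2, an atypical cadherin that links core complexes of neighbouring cells, had 33.9, 31.4, 29.0 and 29.6 CPM in SOX11 libraries and 25.8, 25.8, 30.2 and 26.8 CPM in control libraries. Control replicate 3 lay above SOX11 replicates 3 and 4, so the groups overlapped. The log2 fold change was 0.19 ± 0.0622 (SE), the smallest of the called increases, with an edgeR adjusted p of 0.0248. That call ended without control replicate 1 (0.0701), control replicate 2 (0.0992), control replicate 4 (0.0559) or SOX11 replicate 1 (0.124), and with DESeq2 (0.0575). CELSR2 is on the plus strand of chromosome 1, 109250019 to 109275750. In all, SOX11 and control values were fully apart for 5 of the 9 tested genes, beside 21.1% of all tested genes. These were PTK7, WNT5B, VANGL2 and FZD3, higher in SOX11, and VANGL1, lower in SOX11.

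**Figure D2:**
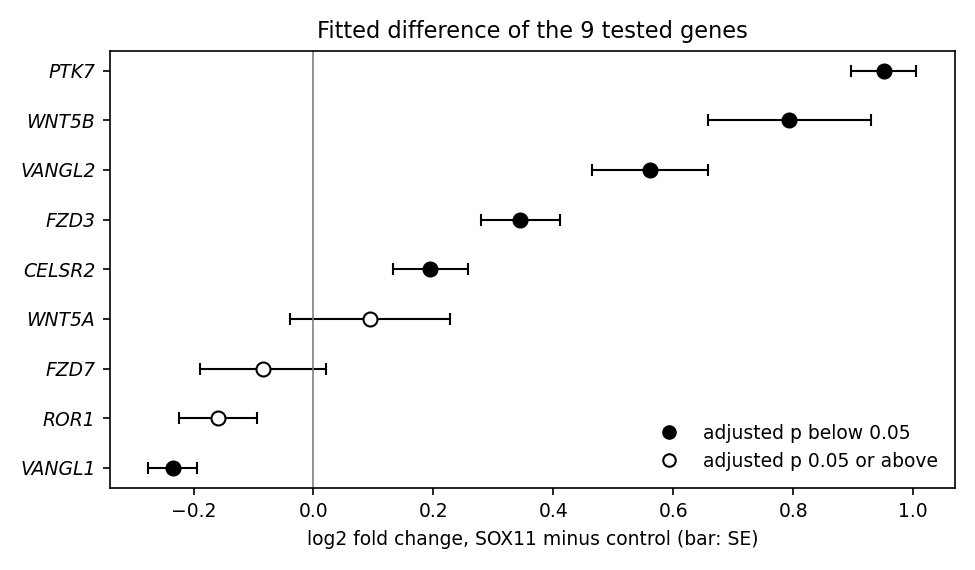
Log2 fold change (SOX11 minus control, horizontal axis) of the 9 tested genes with its SE as a bar; filled points have an edgeR adjusted p below 0.05. PTK7 leads at 0.95, VANGL1 is lowest at -0.23, and the bars of WNT5A and FZD7 cross 0.

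To compare levels between genes, CPM was divided by the length of the merged exons in kilobases. In SOX11 libraries the order by mean CPM per kb was ROR1 (7.74 ± 0.770), VANGL1 (7.36 ± 0.255), PTK7 (4.77 ± 0.164), CELSR2 (2.51 ± 0.176), VANGL2 (2.11 ± 0.187), FZD7 (1.94 ± 0.227), WNT5B (1.67 ± 0.298), FZD3 (1.58 ± 0.0960), WNT5A (0.576 ± 0.0369) and ROR2 (0.0343 ± 0.00975), each with its SD over 4 libraries. In control libraries it was VANGL1 (8.66 ± 0.208), ROR1 (8.63 ± 0.687), PTK7 (2.47 ± 0.120), CELSR2 (2.20 ± 0.171), FZD7 (2.06 ± 0.149), VANGL2 (1.44 ± 0.143), FZD3 (1.25 ± 0.0259), WNT5B (0.970 ± 0.148), WNT5A (0.541 ± 0.0626) and ROR2 (0.0302 ± 0.00660). ROR1 and VANGL1 were not separated in either group.

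By merged exons PTK7 held the third place in both groups. In control libraries its range overlapped that of CELSR2, although PTK7 was higher in each of the 4 libraries. In SOX11 libraries its lowest library, at 4.63 CPM per kb, lay above the highest CELSR2 library, at 2.74 CPM per kb. From CELSR2 down to FZD3, neighbours in the SOX11 order overlapped. PTK7 made up 15.8% ± 0.452 of the summed per-length level of the 10 genes in SOX11 libraries and 8.75% ± 0.552 in control libraries (SD, n = 4 each). VANGL1 made up 24.3% ± 1.19 in SOX11 and 30.7% ± 0.731 in control libraries. With the longest transcript as length in place of merged exons, PTK7 stood at 8.15 CPM per kb in SOX11, above VANGL1 at 7.68 CPM per kb there, and at 4.22 CPM per kb in control. By that length WNT5B stood at 3.13 CPM per kb in SOX11 and 1.81 CPM per kb in control, above CELSR2 (2.94), VANGL2 and FZD7 in SOX11 and above VANGL2 and FZD3 in control. By merged exons the summed level was 30.3 ± 1.06 CPM per kb in SOX11 and 28.3 ± 0.859 CPM per kb in control libraries.

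The balance within pairs of genes from the same family is the ratio of per-length levels in each library. VANGL1 over VANGL2 was 3.66, 3.25, 3.61 and 3.47 in SOX11 libraries and 6.15, 6.88, 5.75 and 5.44 in control libraries. The groups were apart, and VANGL1 stayed the more abundant form in every library. FZD7 over FZD3, the frizzled genes described here, was 1.22, 1.01, 1.38 and 1.33 in SOX11 libraries. In control libraries it was 1.81, 1.53, 1.60 and 1.68, again without overlap. FZD7 itself was not called (log2 fold change -0.08), while FZD3 was called higher (0.35). WNT5B over WNT5A averaged 2.94 ± 0.698 in SOX11 and 1.81 ± 0.345 in control libraries (SD, n = 4 each), with SOX11 replicate 2 (2.12) below control replicate 4 (2.27). By the longest transcript that ratio was 4.59 in SOX11 and 2.83 in control libraries. The ROR1 to ROR2 ratio rests on the few counts of ROR2 and averaged 249 ± 113 in SOX11 and 295 ± 56.6 in control libraries, a spread too wide to separate the groups.

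**Figure D3:**
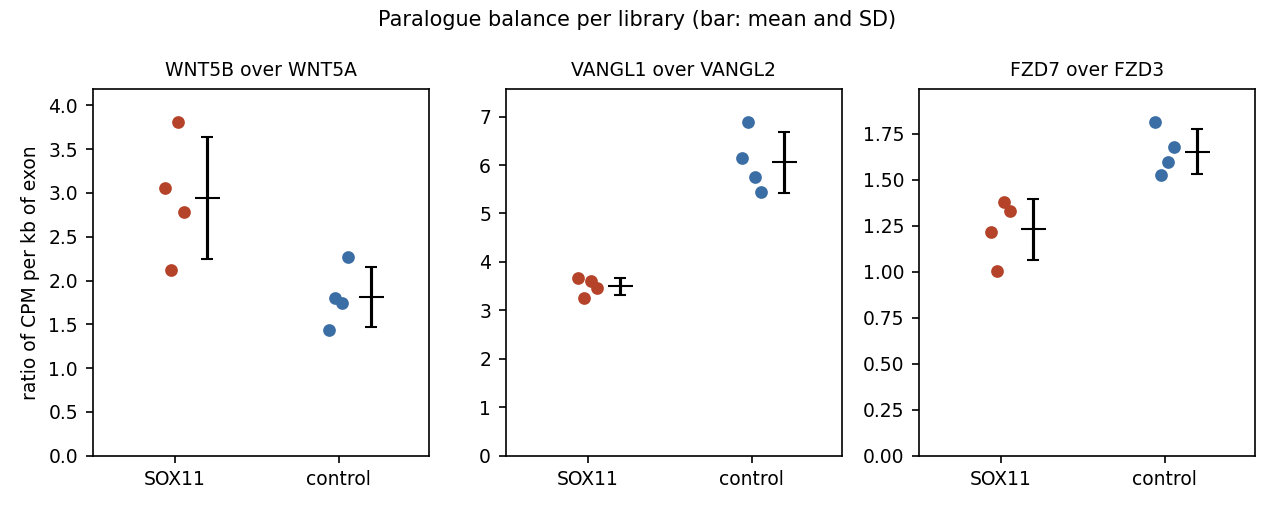
Ratio of CPM per kb of exon (vertical axis, from 0) within 3 pairs of genes from the same family. Points are libraries, SOX11 left and control right, with mean and SD beside them. VANGL1 over VANGL2 runs from 3.25 to 3.66 in SOX11 and from 5.44 to 6.88 in control libraries.

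Genes of the same pathway outside the 10 were taken by function. Of 110 listed genes, 75 were tested, and 15 were higher and 5 lower in SOX11 libraries, which is 26.7% beside 20.0% of all tested genes. Their median log2 fold change was 0.03. With DESeq2, 9 were higher and 3 lower, which is 16.0% of the 75 beside 15.4% of all tested genes. The share lay near that of all genes and is no result about the list. Counts for each list below stand beside 10.3% higher and 9.67% lower of all tested genes by edgeR.

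Among the other core polarity genes, 3 of 11 tested were higher and 2 lower. CELSR1 (67.3 ± 4.13 CPM in SOX11 and 58.8 ± 3.87 CPM in control, log2 fold change 0.19, edgeR adjusted p = 0.00535) and CELSR3 (30.6 ± 1.42 CPM in SOX11 and 25.9 ± 0.945 CPM in control, log2 fold change 0.24, adjusted p = 0.00279) rose, in the same direction as their paralogue CELSR2. FZD6, a frizzled receptor of polarity in skin and hair of the mouse, fell to 166 ± 5.19 CPM in SOX11, against 181 ± 1.73 CPM in control (log2 fold change -0.13, adjusted p = 0.00570). PRICKLE3, a cytoplasmic core protein, was at -0.25 with an adjusted p of 0.0403. Its call ended without control replicate 2 (0.232), control replicate 4 (0.0644), SOX11 replicate 1 (0.0590), 2 (0.0666), 3 (0.0651) or 4 (0.0874), with DESeq2 (0.101) and with the replicate block (0.0577). The other core gene called, DVL3, had a log2 fold change of 0.10 and an edgeR adjusted p of 0.0443. That call ended with DESeq2 (0.0940), with the replicate block (0.0752), without a filter on low counts (0.179), with RLE factors (0.0504) and when any 1 library was left out (0.0592 to 0.102). DVL1 (-0.11) and DVL2 (0.04), like DVL3 cytoplasmic transducers of frizzled signals, and SCRIB (0.02) were not called.

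Among effectors and ciliary polarity genes, 4 of 16 tested were higher and 0 lower with edgeR. DESeq2 called 2 higher and 0 lower. At an unadjusted edgeR p under 0.05, 5 were higher and 2 lower. DAAM2, a formin that works downstream of dishevelled, had 0.892 ± 0.144 CPM in SOX11 and 0.260 ± 0.135 CPM in control (log2 fold change 1.70 ± 0.373 SE, edgeR adjusted p = 0.00120). At this level it rests on few counts, and its span overlaps MOCS1 and DAAM2-AS1 on the other strand and ENSG00000281969 on its own strand. RHOU (0.53), a WNT-inducible GTPase, and INTU (0.27), a ciliary polarity effector, rose as well. The DAAM1 increase (0.21, adjusted p = 0.0238) ended without control replicate 2 (0.0867), 3 (0.0612) or 4 (0.0798), without SOX11 replicate 1 (0.0611) or 2 (0.109), and with DESeq2 (0.0546). The general transducers RHOA (-0.0019), RAC1 (-0.01) and ROCK1 (-0.05) were not called.

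FAT4, a giant cadherin of the FAT and Dachsous polarity system, had the largest fold of that list. It measured 31.5 ± 2.25 CPM in SOX11 and 19.1 ± 0.440 CPM in control, with a log2 fold change of 0.72 ± 0.0619 (SE) and an edgeR adjusted p of 3.68e-10. FAT1 rose by 0.21 and FJX1, the Four-jointed kinase homologue, fell by 0.22 on the log2 scale, so 2 of the 4 tested genes were higher and 1 lower. DCHS1, a cadherin ligand of FAT4, was at 0.677 ± 0.131 CPM in SOX11 and 0.636 ± 0.177 CPM in control and was not called.

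Of the other WNT ligands, 0 of 5 tested were called by edgeR and 0 by DESeq2. WNT2B was the 1 gene of these with an unadjusted p under 0.05 (log2 fold change 0.27, edgeR adjusted p = 0.129). Per length, WNT7B was the most abundant ligand, at 11.9 ± 0.544 CPM per kb in SOX11 and 11.9 ± 0.797 CPM per kb in control (SD, n = 4 each), above WNT5B at 1.67 CPM per kb in SOX11 and 0.970 CPM per kb in control. Of the other frizzled receptors and co-receptors, 2 of 8 tested were higher and 1 lower. RYK, a WNT receptor that also has an inactive kinase domain, rose (log2 fold change 0.15, adjusted p = 0.00747), as did LRP6 (0.15, adjusted p = 0.0111, and 0.0590 without control replicate 4), whose span overlaps BCL2L14 on the other strand. FZD6 was the most abundant frizzled gene per length, at 40.7 ± 1.28 CPM per kb in SOX11 and 44.5 ± 0.425 CPM per kb in control, beside FZD3 at 1.58 CPM per kb in SOX11 and 1.25 CPM per kb in control.

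Among other receptors with inactive or atypical kinase domains, 2 of 5 were higher and 1 lower. Besides RYK, EPHB6 (1.24 ± 0.385 CPM in SOX11 and 0.670 ± 0.186 CPM in control, edgeR adjusted p = 0.0269) was higher and STYK1 (2.41 ± 0.214 CPM in SOX11 and 3.44 ± 0.306 CPM in control, adjusted p = 0.0152) lower. The EPHB6 call ended without control replicate 2 (0.0939) or 3 (0.0863) and without SOX11 replicate 1 (0.0904) or 2 (0.114), and that of STYK1 without control replicate 2 (0.0609) and with DESeq2 (0.0603). Of the enzymes known to cut PTK7 at the membrane, 1 of 9 was called. MMP14, a membrane-bound metalloproteinase, fell to 35.7 ± 1.37 CPM in SOX11, against 45.1 ± 2.84 CPM in control (log2 fold change -0.34, adjusted p = 1.57e-05), while ADAM17 (0.07), another membrane protease, was not called.

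Of genes of WNT secretion and of secreted WNT modulators and their receptors, 1 of 10 tested was higher. This was SFRP4 (log2 fold change 1.65, and 2.39 without control replicate 3), at 1.11 ± 0.105 CPM in SOX11 and 0.354 ± 0.325 CPM in control; EPDR1 overlaps it on the other strand. Of target and feedback genes of the beta-catenin branch, 2 of 9 were higher. NKD2, which binds dishevelled, rose (0.46, edgeR adjusted p = 0.000529). TNFRSF19 (0.89, adjusted p = 0.0197) lost its call without control replicate 2 (0.0628) or 4 (0.0732), without SOX11 replicate 1 (0.0627) or 2 (0.0808) and with DESeq2 (0.0674). AXIN2, the usual readout of beta-catenin activity, stood at 0.782 ± 0.165 CPM in SOX11 and 0.766 ± 0.235 CPM in control and was not called.

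**Figure D4:**
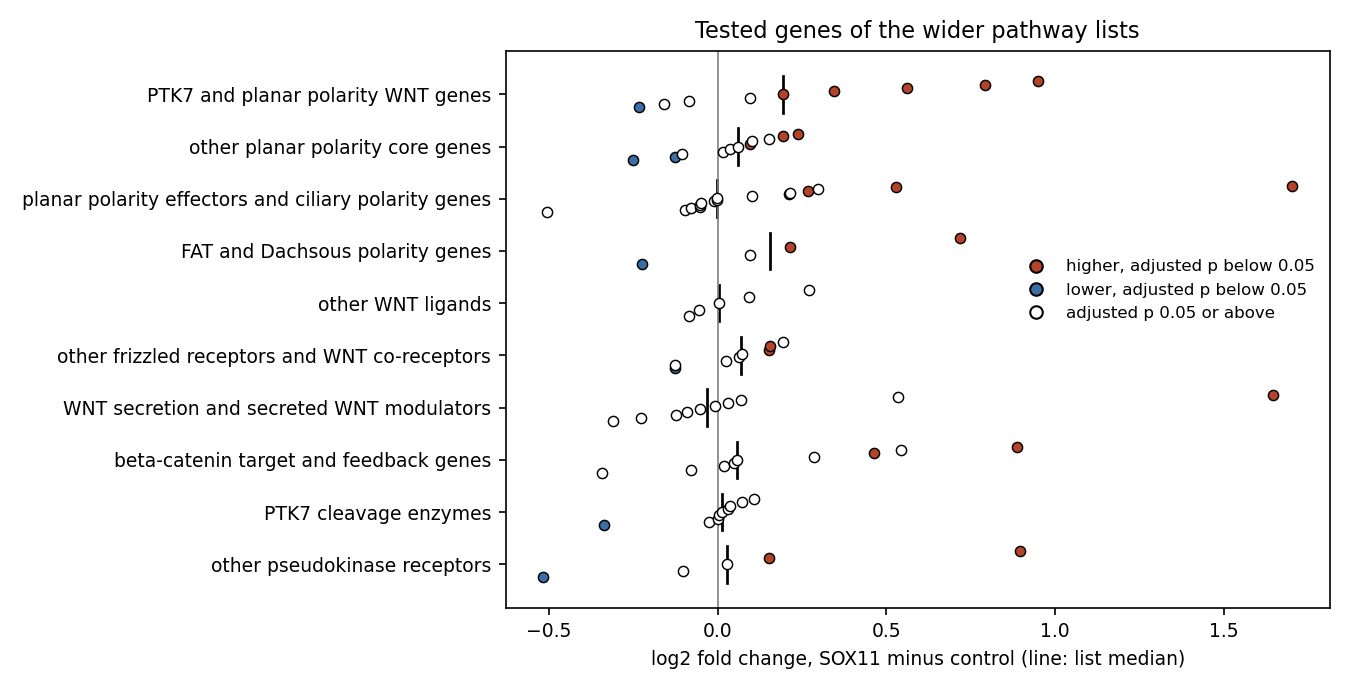
Log2 fold change (SOX11 minus control) of each tested gene, 1 row per list; red is higher and blue lower at an edgeR adjusted p below 0.05, white not called, and the vertical line is the list median. The medians of the other lists lie between -0.03 and 0.15, beside 0.19 for the genes described here.

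The patterns most like PTK7 over the 8 libraries were those of RAB11FIP4, PRR36, MCAM, FBLN1 and TFPI2, in that order. Likeness was the root mean square difference of mean-centred log2 CPM, which was 0.085 for RAB11FIP4 and 0.106 for TFPI2. It was taken over the 10926 other tested genes whose mean reached 5 CPM and whose symbol was not an identifier or clone name. The measure includes the difference between SOX11 and control libraries, so it ranks genes with a similar fold and spread. RAB11FIP4, an effector of the recycling GTPase RAB11, had 13.4 ± 0.586 CPM in SOX11 and 7.49 ± 0.517 CPM in control. MCAM, an adhesion molecule of the immunoglobulin family that overlaps CBL on the other strand, had 106 ± 7.41 CPM in SOX11 and 51.5 ± 2.22 CPM in control. TFPI2, a secreted protease inhibitor, overlaps GNGT1 on the other strand.

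The genes beside PTK7, WNT5B and VANGL2 on their chromosomes were also read out. Of 32 tested genes within 500 kb of PTK7, 4 were higher and 1 lower, beside 20.0% of all tested genes called, and their log2 fold changes ran from -0.18 to 0.28. The called neighbours were KLC4 (0.27), CUL7 (0.23), KLHDC3 (0.19), BICRAL (0.16) and RRP36 (-0.15). The KLC4 call ended without control replicate 1 (0.0502) or SOX11 replicate 1 (0.0675), and that of BICRAL without control replicate 4 (0.0764) or SOX11 replicate 2 (0.0507). Around WNT5B, edgeR and DESeq2 each called 0 of 5 tested genes, and 0 had an unadjusted p under 0.05. Around VANGL2, 2 of 12 were higher and 3 lower. One of these, IGSF9, an immunoglobulin family protein, stood at 1.98 ± 0.161 (SE), above VANGL2 itself, with its start 455 kb away; the other called genes there were PIGM (0.14), PEA15 (-0.19), TAGLN2 (-0.23) and SLAMF7 (-0.53). The PIGM call ended with DESeq2 (0.102), without a filter (0.0932), with the replicate block (0.0658) and without control replicate 2 (0.102), 3 (0.103) or 4 (0.0968) or SOX11 replicate 1 (0.0912), 2 (0.0530) or 3 (0.199). SLAMF7 was at -0.29 without control replicate 1 (adjusted p = 0.198), and its call also ended without SOX11 replicate 1 (0.0838), 2 (0.0508) or 3 (0.0630). These neighbours were chosen after their values were seen.

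**Figure D5:**
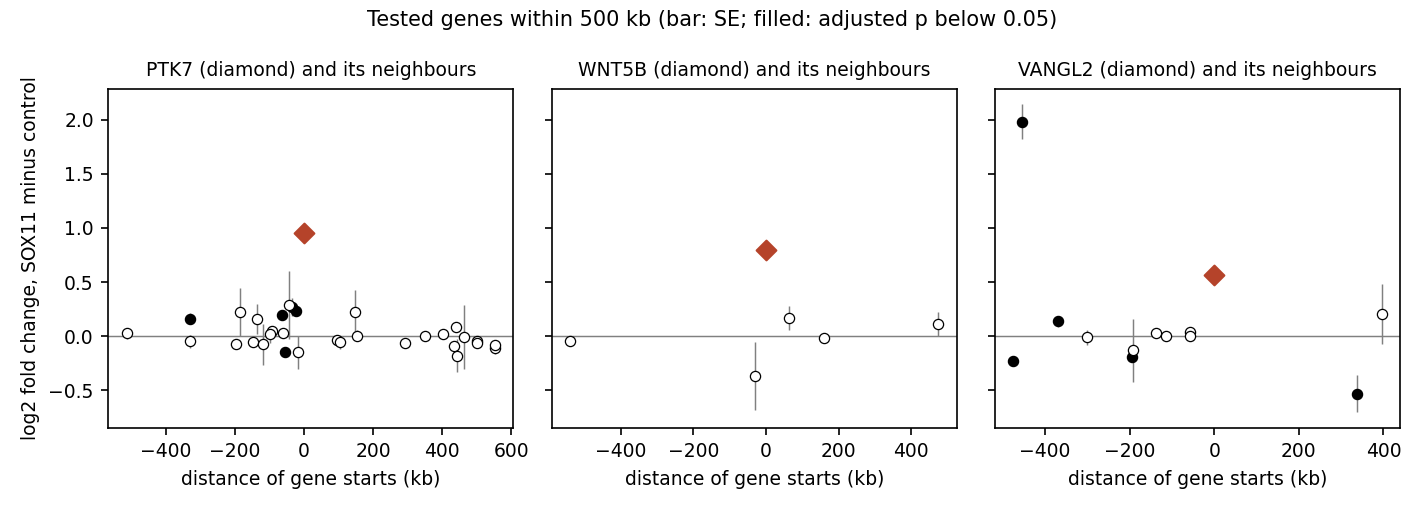
Log2 fold change (SOX11 minus control, bar SE) of tested genes by the distance in kb between their start and that of PTK7, WNT5B or VANGL2 (diamond); filled points have an edgeR adjusted p below 0.05. PTK7 at 0.95 stands above all its tested neighbours, which reach 0.28, while IGSF9 at 1.98 stands above VANGL2.

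Markers of the labelled cell type were present. EPCAM had 47.6 ± 1.15 CPM in SOX11 and 44.5 ± 1.17 CPM in control, and CDH1 38.8 ± 6.98 CPM in SOX11 and 42.0 ± 4.04 CPM in control. The keratin genes KRT8, KRT18 and KRT19 fell, and the 5 epithelial markers summed to 1198 to 1204 CPM in SOX11 and 1494 to 1758 CPM in control libraries. KRT8 and KRT18 overlap on opposite strands. Of the 9 fibroblast markers 6 had counts and 2 were tested, and both, COL1A1 and SFRP4, were higher. The 6 summed to 6.97 to 8.93 CPM in SOX11 and 3.39 to 5.67 CPM in control libraries, most of it COL1A1 (log2 fold change 0.72). COL1A2 was at 0.295 CPM in SOX11 and 0.0405 CPM in control, and COL3A1 at 0.0956 CPM in SOX11 and 0.289 CPM in control. PDGFRA was at 0.0162 CPM in SOX11 and 0 CPM in control. DCN, LUM and FAP matched no gene of the count table. The part of the fibroblast markers in the results above was not tested. Of blood markers, PTPRC was at 0.0162 CPM in SOX11 and 0.0443 CPM in control, and the 1 tested gene, CORO1A, was not called (edgeR adjusted p = 0.0423 without control replicate 4). Of endothelial markers, VWF was at 0.0749 CPM in SOX11 and 0.0957 CPM in control, and the 1 tested gene, EGFL7, was lower (-0.21, edgeR adjusted p = 0.0270), a call that ended without control replicate 2 (0.109) or 4 (0.0899), without SOX11 replicate 2 (0.0512) or 4 (0.0820) and with DESeq2 (0.0649).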

How the data were processed

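The deposited table holds raw counts, not normalized, for Ensembl gene identifiers in 8 libraries, per the file headers. Per the labels' protocols, RNA came from a Maxwell RSC simplyRNA kit and libraries from a TruSeq Stranded mRNA kit. Per the submitters' processing notes, the tools were cutadapt, FastQC and STAR 2.7.0e and the build GRCh38, with no roles stated. How reads were counted, with which annotation and whether by strand, is not given, so reads of overlapping antisense genes may not be separated. The labels name no batch.

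Genes were filtered with filterByExpr (minimum count 10) and tested with edgeR 4.0.16 in R 4.3.3 (TMM, quasi-likelihood F-test, robust fit, group as the only term), with Benjamini-Hochberg adjustment over 15665 genes. Fold changes are SOX11 minus control. Coordinates and exon lengths are from GENCODE 29 on GRCh38, which may differ from the authors' annotation; symbols matched 32053 of 32066 identifiers. The script was tested on simulated data.

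The genes described and all lists were chosen with earlier results of these data known. Named are those genes, SOX11, the called genes of a list, 4 at most, by adjusted p (the most abundant where none was called) and the 5 genes most like PTK7. WNT2B, the DVL genes, SCRIB, RHOA, RAC1, ROCK1, DCHS1, ADAM17, AXIN2, the markers EPCAM, CDH1 and those near 0 and the chromosomal neighbours were named after their values were seen. Alternatives were RLE factors, no filter, a stricter filter (1 CPM in 4 libraries), DESeq2 1.42.0, library sizes without SOX11, the replicate number as a block, each library left out, the longest transcript as length and, added after seeing the data, a test against a 1.5-fold change and a window of 1000 kb for neighbours. Replicates of a group differed beyond sampling noise, with a chi-square statistic per degree of freedom of at least 1.39, so no library was counted as a repeat.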

Additional observations from a re-analysis of the deposited data

Results flagged for a closer look

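Of 84 groups of 4 libraries checked (42 genes in 2 groups), 6 held a library far from the other 3 by Dixon's criterion at the 95% level, which chance alone gives for about 1 group in 20. None of the 6 was among the 10 planar polarity WNT genes, and all 6 were in SOX11 libraries. In SOX11 replicate 1, DAAM2 was at 0.677 CPM (others 0.945 to 0.975), FAT1 at 85.6 CPM (others 80.1 to 81.0) and WNT7B at 64.4 CPM (others 58.4 to 59.3). NKD2 was at 10.5 CPM in SOX11 replicate 2 (others 12.4 to 12.7), STYK1 at 2.73 CPM in SOX11 replicate 3 (others 2.28 to 2.34) and RAB11FIP4 at 14.2 CPM in SOX11 replicate 4 (others 13.0 to 13.2).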

How the results depend on the processing

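The PTK7 increase was called under each of the 15 alternatives, with a log2 fold change of 0.93 to 0.98. Against a 1.5-fold change, 90 of all genes were called (79 higher, 11 lower), 1 of the genes described here (1 higher, 0 lower; PTK7) and 0 of the wider pathway genes (0 higher, 0 lower). WNT5B, VANGL1, VANGL2 and FZD3 were called under all alternatives apart from that one, and WNT5A and FZD7 under none. The number called lower among the genes described was 2 without a filter and 2 with the replicate block, and 1 to 2 with a library left out, the second being ROR1. Of the wider genes DESeq2 called 12 (9 higher, 3 lower), which is 16.0% beside 15.4% of all genes (2407), and leaving out a library gave 3 to 5 lower, with 3 without control replicate 2. WNT7B, near no change, reversed to -0.0042 without a filter; with a library left out it ran from -0.030 to 0.053, at -0.02 without control replicate 3, -0.01 without control replicate 4 and -0.030 without SOX11 replicate 1. The cause was not tested. DESeq2 gave no adjusted p for DAAM2, SFRP4 and EPHB6. Within 1000 kb of VANGL2, edgeR called 6 of 29 tested genes higher and 4 lower, beside 20.0% of all tested genes called. Within 1000 kb of PTK7 it called 4 of 43 higher and 3 lower, and of WNT5B 0 of 11. With the longest transcript as length, levels in CPM per kb in SOX11 libraries were 8.15 for PTK7, 0.690 for WNT5A, 3.13 for WNT5B, 8.91 for ROR1, 0.0458 for ROR2, 7.68 for VANGL1 and 2.94 for CELSR2, and in control libraries 4.22 for PTK7, 0.648 for WNT5A, 1.81 for WNT5B, 9.94 for ROR1, 0.0403 for ROR2, 9.03 for VANGL1 and 2.58 for CELSR2, which put PTK7 above VANGL1 in SOX11 libraries and moved WNT5B above CELSR2, VANGL2 and FZD7 in SOX11 and above VANGL2 and FZD3 in control libraries. Deviations of same-numbered libraries from their group means had correlations from -0.07 to 0.11. SOX11 replicates 1 and 4 correlated best with the control library of the same number, and replicates 2 and 3 did not. Such low values cannot tell whether the numbers pair the libraries. With the replicate block 2899 of all genes were called, against 3130 without it. Depth limits ROR2, at 2 to 4 counts.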
